A study of Mus musculus with 2 samples.

Results

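The mouse genes of 7 cathepsins, *Ctsk*, *Ctsb*, *Ctsd*, *Ctsl*, *Ctss*, *Ctsz* and *Ctsc*, and of their secreted inhibitor *Cst3* were followed through the cells of the embryonic coronal suture. They are 8 of the 27514 genes listed for both libraries, and each was found by its symbol. Single cells of wild-type C57/BL6 coronal sutures were captured on the 10x Chromium system at embryonic stages E15.5 and E17.5, each stage being 1 sample. The E15.5 sample came from 10 pooled sutures digested for 45 min with collagenase II and dispase, after which dead cells were removed with a kit. The E17.5 sample came from 16 sutures of 2 litters, digested for 30 min with collagenase IV in 3 batches that were sorted by flow cytometry. Stage, enzyme, sorting, embryos and counting software therefore cannot be told apart, and with 1 sample per stage no test between stages was possible.

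Cathepsins are proteases of the lysosome. Cathepsins K, B, L, S, Z and C cut proteins with a cysteine in the active site, and cathepsin D uses aspartic acids. Osteoclasts, which resorb bone, secrete cathepsin K into an acid pocket sealed against the bone surface, where it cuts collagen. Macrophages hold cathepsins B, S and C in the lysosome and in the compartments where antigens are trimmed. Cystatin C, the product of *Cst3*, is released by many cell types and blocks cysteine cathepsins outside the cell.

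The authors' table gave a cluster to 5335 of the E15.5 barcodes and 6830 of the E17.5 barcodes, in 15 clusters of osteogenic and mesenchymal cells: ectocranial layers (EC1 to EC4), a ligament-like population (LIG), meningeal layers (MG1 to MG4), osteogenic cells (OG1 to OG4) and proliferating osteogenic cells (PO1 and PO2). These labelled cells held 48607817 unique molecular identifiers (UMIs) at E15.5 and 92585034 at E17.5, with medians of 8510 and 12301.5 per cell. Values are CPM, the UMIs of a gene summed over the cells of a class and scaled to a class total of 1000000. UMIs count molecules, so the levels were not scaled by gene length. Whether all genes were captured equally was not tested, so comparisons between genes are comparisons of UMIs. Bracketed ranges are exact 95% Poisson intervals, or exact conditional intervals for ratios, and cover counting error only. The deposited clusters were built from the RNA of these same cells, by the paper's methods on a selected set of genes. Whether these 8 were in that set is not given, so differences between clusters are given as descriptions.

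Osteoclasts were taken as unlabelled cells with 20 or more UMIs of *Acp5* plus *Mmp9*, an acid phosphatase and a gelatinase of this cell type, within limits on depth, mitochondrial and haemoglobin RNA. The E15.5 library held 92 and the E17.5 library 67, or 1.12% and 0.764% of the cells, with medians of 19813.5 and 22053 UMIs, and 4 in each library also reached 20 UMIs of another marker list. No labelled cell reached 20 UMIs of the pair in either library. Just inside the limit, with 20 to 24 UMIs, lay 11 cells in each library, and just outside it, with 15 to 19 UMIs, lay 13 and 4. *Ctsk* in the cells just inside stood at 239.9 and 263.5 CPM and in those just outside at 408.4 and 631.1 CPM, both far below the class as a whole.

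Markers that the choice did not use bore out the name. *Ocstamp*, needed for the fusion of osteoclasts, stood at 94.99 CPM at E15.5 and 136 CPM at E17.5 in the osteoclasts and at 0.185 and 0.356 CPM in the labelled cells. *Atp6v0d2*, a subunit of the proton pump, stood at 431.9 and 535.1 CPM in the osteoclasts and at 1 and 2.58 CPM in C1q-high cells. *Dcstamp* stood at 121 and 86.43 CPM, *Nfatc1*, a transcription factor of osteoclast formation, at 224.5 and 269.5 CPM, *Prdm1* at 85.43 and 116.9 CPM and *Tnfrsf11a*, the RANKL receptor, at 47.76 and 64.19 CPM. *Itgb3* was at only 21.76 and 12.71 CPM, and *Calcr*, *Oscar* and *Siglec15* of the same list of 10 had fewer than 50 UMIs in at least 1 library. Macrophage RNA was low beside C1q-high cells, with *Adgre1* at 2.12 and 11.4 CPM against 193.7 and 352.5 CPM in C1q-high cells, *Mrc1* at 2.12 and 5.72 CPM, and *Gpr34* at 0 in both libraries. It was not absent: *Pf4* stood at 32.9 and 88.98 CPM, against 11.95 and 42.94 CPM in labelled cells and 3792 and 7004 CPM in C1q-high cells. *Adgre1* in labelled cells was at 0.329 and 2.24 CPM. *Csf1r*, the receptor that both lineages need, stood at 202.7 and 348.9 CPM. Osteoblast markers were low as well: *Sp7*, *Runx2* and *Ifitm5* were all at least 2-fold below labelled cells. C1q-high cells, 282 and 559 unlabelled cells with 20 or more UMIs of *C1qa*, *C1qb* and *C1qc* and under 20 of every other marker list, served as the macrophage comparison.

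*Ctsk* and *Ctss* are neighbours on chromosome 3 and read in the same direction, yet they marked different cells. In the GRCm38 build *Ctsk* (ENSMUSG00000028111) spans positions 95499256 to 95509362 and *Ctss* (ENSMUSG00000038642) spans 95526786 to 95556403, both on the plus strand, with 17423 bases between them. The RefSeq promoter windows of GRCm38.p6, from 250 bases before to 50 after the start, are shown for this pair because the neighbours differed in opposite directions between osteoclasts and macrophages. Capitals mark the letters TCATGTG, an E-box form bound by the MITF family, and the windows lie at chr3:95498960-95499259 for *Ctsk* and chr3:95526536-95526835 for *Ctss*, plus strand.
Ctsk: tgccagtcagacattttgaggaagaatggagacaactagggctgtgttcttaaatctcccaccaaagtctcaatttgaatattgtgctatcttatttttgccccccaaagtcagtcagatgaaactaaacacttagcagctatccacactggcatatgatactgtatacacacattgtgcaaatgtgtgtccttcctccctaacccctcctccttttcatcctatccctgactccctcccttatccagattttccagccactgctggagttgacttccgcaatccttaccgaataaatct
Ctss: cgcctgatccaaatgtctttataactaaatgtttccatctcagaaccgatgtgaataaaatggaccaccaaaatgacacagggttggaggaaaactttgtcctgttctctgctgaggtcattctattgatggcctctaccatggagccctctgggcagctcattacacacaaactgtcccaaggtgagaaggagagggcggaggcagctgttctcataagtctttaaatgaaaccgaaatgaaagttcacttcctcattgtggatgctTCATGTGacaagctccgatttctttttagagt
The *Ctsk* window held none of 4 sets of letters searched on both strands. These were the E-box CACGTG, its longer form TCACGTGA that contains it, the TCATGTG shown above, and the AP-1 letters TGANTCA. The third of them, TCATGTG, was found in the *Ctss* window at position 19 after the start, and in 3.77% of all 32851 windows. Both windows were low in G and C, at 43.7% and 44.0% against a median of 52.67% over all windows.

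*Ctsk* was the leading cathepsin RNA of osteoclasts and was also present in every labelled cluster. In osteoclasts its E15.5 level was 2065 CPM [2000 to 2131] and its E17.5 level 2667 CPM [2587 to 2749], and it stood at 206.3 and 318.1 CPM over all labelled cells. Osteoclasts were thus 10.0-fold [9.64 to 10.4] and 8.39-fold [8.12 to 8.66] above the labelled cells. C1q-high cells lay far below both, at 34.67 and 54.5 CPM, so that osteoclasts exceeded them 59.6-fold [49.0 to 73.1] and 48.9-fold [43.8 to 54.8]. In mast cells, endothelial cells and pericytes *Ctsk* reached at most 65.35 CPM at E15.5 and 94.48 CPM at E17.5, below every labelled cluster. At E17.5 the barcodes carry 1 of 3 suffixes, which stand for separately loaded wells whose match to the 3 batches is not given, and osteoclast *Ctsk* was 1637, 3368 and 2827 CPM in 19, 23 and 25 cells, each above every labelled cluster.

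**Figure D1:**
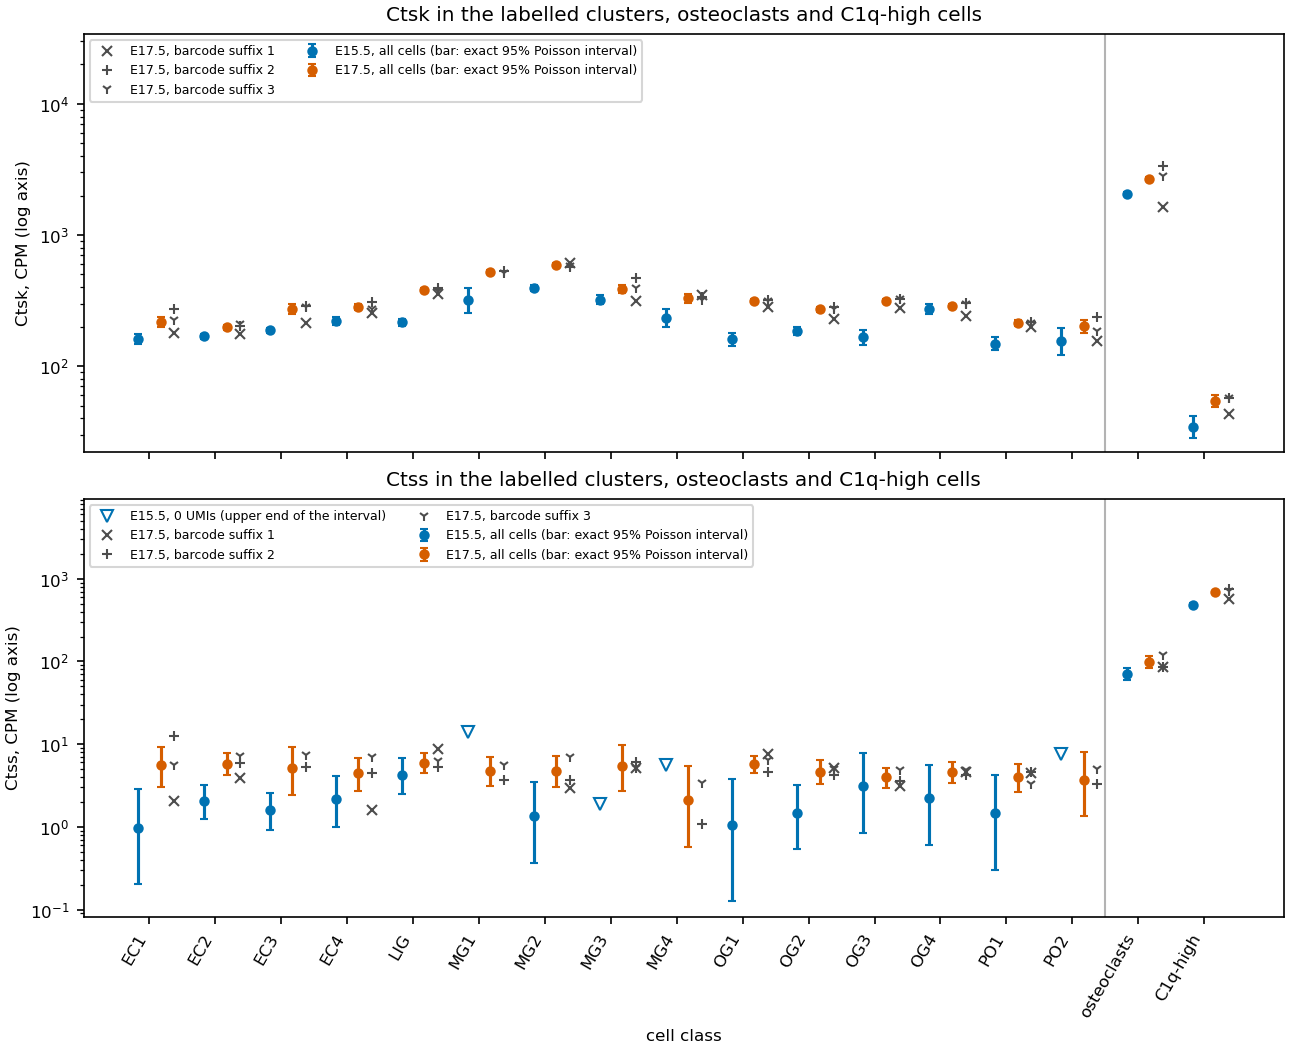
*Ctsk* and *Ctss* (CPM, log axis) in the 15 labelled clusters and the unlabelled classes at E15.5 and E17.5. Bars are exact 95% Poisson intervals, open triangles mark the upper end of the interval where no UMI was counted, and grey marks are the 3 E17.5 barcode suffixes. *Ctsk* runs from 147.9 to 586.9 CPM over the clusters and above 2000 CPM in osteoclasts, while *Ctss* stays under 6 CPM in every cluster and reaches 484 and 698.2 CPM in C1q-high cells.

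Of all *Ctsk* UMIs in the cells kept, the labelled cells held 60.42% in the E15.5 and 78.02% in the E17.5 library, close to their 60.93% and 76.51% of the UMIs of all genes. Osteoclasts gave 23.44% and 11.12% of the *Ctsk* UMIs from 2.36% and 1.3% of all UMIs, and C1q-high cells 0.627% and 0.896% from 3.76% and 5.13%. The shares depend on how many cells of each type were captured, which the dissections and sorting set.

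Among the labelled clusters *Ctsk* was highest in the meningeal layers that line the bone. At E15.5 the order from low to high was PO1, PO2, OG1, EC1, OG3, EC2, OG2, EC3, LIG, EC4, MG4, OG4, MG1, MG3 and MG2, from 147.9 CPM [131.7 to 165.5] to 393.8 CPM [371.6 to 417.1] with a median of 188.2 CPM. At E17.5 it was EC2, PO2, PO1, EC1, OG2, EC3, EC4, OG4, OG3, OG1, MG4, LIG, MG3, MG1 and MG2, from 197.4 CPM [187.7 to 207.4] to 586.9 CPM [565.5 to 608.9] with a median of 289.3 CPM. MG2 thus led in both libraries, at 2.03 and 1.94 times the other labelled cells. Its E17.5 suffixes were close, at 616.6, 572.9 and 577.3 CPM. Along these orders 12 of the 14 neighbouring pairs at E15.5 and 9 at E17.5 had overlapping intervals, so most neighbours did not differ beyond counting error. For the other members 7 to 14 of the pairs overlapped. MG1 was next at E17.5, at 518.9 CPM, but held only 28 cells at E15.5 (316.9 CPM [252.4 to 392.8]).

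Osteoclast genes stood far below their osteoclast level in the same clusters, but *Acp5* of the rule was not absent. It stood at 19.48 and 26.08 CPM over all labelled cells, against 1903 and 2891 CPM in osteoclasts. Its highest clusters were meningeal, MG1 at E15.5 (87.81 CPM) and MG3 at E17.5 (83.79 CPM). An *Acp5* UMI was found in 37.71% and 42.07% of MG2 cells. *Atp6v0d2* stood at 0.535 and 0.67 CPM over all labelled cells and at no more than 2.07 CPM in any cluster, and *Mmp9* at 1.95 to 30.92 CPM in the E15.5 clusters, highest in OG3, and 3.24 to 9.50 CPM in those of E17.5. The *Mmp9* UMIs of each cluster were multiplied by the ratio of *Ctsk* to *Mmp9* UMIs in osteoclasts. This product was 1.5% to 31.6% (OG3) of the measured *Ctsk* at E15.5 and 1.25% to 3.81% (PO2) at E17.5. No such product was taken from *Acp5*. The source of the mesenchymal *Ctsk* was not tested. When each cell was thinned to 3000 UMIs, a *Ctsk* UMI was found in 67.16% and 78.86% of MG2 cells, 78.26% and 77.61% of osteoclasts, and 4.64% and 14.31% of C1q-high cells. Without thinning, the shares were 89.14% at E15.5 in MG2 and 17.38% and 38.46% in C1q-high cells. The source of the *Ctsk* UMIs in C1q-high cells was not tested.

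*Ctss*, which trims the invariant chain of class II molecules in antigen-presenting cells, was low in the mesenchyme. Labelled cells held 88 UMIs at E15.5 (1.81 CPM) and 448 at E17.5 (4.84 CPM). MG1, MG3, MG4 and PO2 had none at E15.5, with upper limits of 14.08, 1.88, 5.55 and 7.62 CPM. The highest cluster was LIG, at 4.26 and 5.97 CPM, and at both stages all 14 neighbouring pairs in the order overlapped. Free RNA keeps the genes of 1 source in 1 ratio, so the C1q UMIs of each cluster were multiplied by the ratio of *Ctss* to C1q UMIs in C1q-high cells. This product was 67.2% to 216.5% of the measured *Ctss* at E17.5, and 20.93% (LIG) to 168.6% (OG1) in the clusters with a UMI at E15.5. The source of the labelled *Ctss* was not tested. Osteoclasts stood at 70.58 and 99.14 CPM, and C1q-high cells at 484 and 698.2 CPM. The difference from labelled cells was 39.0-fold [29.6 to 51.6] and 20.49-fold [16.97 to 24.64] in osteoclasts, and C1q-high cells exceeded osteoclasts 6.86- and 7.04-fold. *Ctss* in osteoclasts was similar in the suffixes, at 86.74, 86.01 and 119.9 CPM. The part of macrophage RNA in this value was not tested.

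*Ctsz*, a carboxypeptidase also called cathepsin X, was the second cathepsin of osteoclasts. It stood at 580.5 and 571.3 CPM there, 2.70-fold above labelled cells in both libraries. C1q-high cells were level with them, at 637.6 and 553.1 CPM. Endothelial cells were intermediate at E15.5, at 371.9 CPM in only 11 cells, and stood at 581.5 CPM in 103 cells at E17.5. Within the labelled cells MG3, the dura layer, was highest at both stages, at 342.8 and 371.9 CPM, over medians of 210.2 and 211.7 CPM.

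*Ctsc*, the dipeptidyl peptidase that activates the serine proteases of granules, was low in most labelled clusters and highest among them in EC4. EC4, an ectocranial layer, stood at 66.2 CPM at E15.5 and 91.25 CPM at E17.5, which was 3.57-fold [3.098 to 4.097] and 2.76-fold [2.48 to 3.06] above the other labelled cells. The suffixes of EC4 read 106.1, 88.32 and 82.07 CPM. All other clusters lay at 3.82 to 47.92 CPM in the E15.5 library, and at 16.17 to 48.75 CPM in the later one. C1q UMIs would carry as much as 64.94% of the *Ctsc* in MG3 at E15.5 and 50.05% at E17.5, the most of any cluster, and 2.27% and 8.32% in EC4. Osteoclasts held 46.17 and 76.26 CPM, 2.05- and 2.12-fold over labelled cells, close to the limit of 2. This difference did not hold in all cells: it was 1.08-fold in suffix 1 and 3.44-fold in suffix 2, and 1.17-fold at E17.5 among osteoclasts with 40 or more UMIs of the marker pair. C1q-high cells held 724 and 1111 CPM, and mast cells 221.5 and 338 CPM. Pericytes also lay above EC4, at 132.6 CPM in 38 cells and 213.2 CPM in 124 cells.

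*Ctsl* was the reverse of *Ctsk*: a gene of the mesenchyme that was low in osteoclasts. This broad cysteine endopeptidase stood at 427.6 and 313.1 CPM over labelled cells and at 64.21 and 68.64 CPM in osteoclasts, which was 6.66-fold and 4.56-fold lower. EC2, ectocranial fibroblasts, led at both stages with 598.3 and 731.2 CPM, and MG2 followed with 521.5 and 650.1 CPM. The proliferating clusters were at the bottom, with PO2 at 194.2 and 132.1 CPM. Every suffix of osteoclasts, at 77.84, 49.7 and 78.25 CPM, lay below every labelled cluster at E17.5. C1q-high cells, at 404 and 337.5 CPM, resembled the mesenchyme in level.

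*Ctsb* and *Ctsd*, general lysosomal proteases, differed by less than 2-fold between osteoclasts and mesenchyme. *Ctsb* stood at 251.5 and 351.5 CPM in osteoclasts and 248.4 and 284.5 CPM in labelled cells, 1.01-fold [0.922 to 1.11] and 1.24-fold [1.13 to 1.34]. *Ctsd* stood at 199.5 and 329.8 CPM against 208.1 and 282.4 CPM, 0.959-fold and 1.17-fold. C1q-high cells exceeded osteoclasts in both, by 6.54- and 7.73-fold in *Ctsb* and 2.72- and 2.79-fold in *Ctsd*. In the mesenchyme both were highest in MG3, with *Ctsb* at 450.1 and 559.1 CPM and *Ctsd* at 418.1 and 567.9 CPM. *Ctsd* in MG3 was 2.098-fold [1.951 to 2.254] and 2.06-fold [1.94 to 2.18] above the other labelled cells, and its suffixes read 576.6, 557.4 and 568.1 CPM. With the mean of single-cell CPM the E17.5 fold was 1.964, under the limit of 2 used for counts. OG4, the mature osteoblasts, had the least *Ctsb*, at 119.9 and 182.8 CPM.

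The *Ctsd* promoter is shown because it was the richest of the family in E-box letters. It lies at chr7:142387778-142388077 on the minus strand, within RefSeq's GRCm38.p6 coordinates, and is printed along the gene from 5′ to 3′ with CACGTG and TCACGTGA in capitals.
Ctsd: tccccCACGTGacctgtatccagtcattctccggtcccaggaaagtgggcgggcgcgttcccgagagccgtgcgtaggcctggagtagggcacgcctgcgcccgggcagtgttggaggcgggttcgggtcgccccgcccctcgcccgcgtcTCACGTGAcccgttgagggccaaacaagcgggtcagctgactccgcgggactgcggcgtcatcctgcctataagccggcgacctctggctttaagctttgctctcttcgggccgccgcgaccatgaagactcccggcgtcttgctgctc
CACGTG occurred at positions −245 and −98 from the start, and the second match lies inside TCACGTGA at −99, the letters known as a CLEAR element. CACGTG was in 7.15% and TCACGTGA in 0.974% of all windows. Of the 7 members with a window (all but *Ctsb*), *Ctsl* also held CACGTG, at −236, and no member held TGANTCA, which 7.81% of windows have. Such matches are descriptions of the letters only.

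*Cst3*, the inhibitor, was high in the meninges. At E15.5 it ran from 308.4 CPM in OG1 to 1554 CPM in MG1, with 1273 CPM in MG3, and at E17.5 from 315.4 CPM in PO1 to 1330 CPM in MG4, with 1046 CPM in MG3 and 1008 CPM in MG1. MG3 was 2.71-fold [2.60 to 2.82] and 2.13-fold [2.04 to 2.22] above the other labelled cells and MG1 3.13-fold [2.83 to 3.45] and 2.14-fold [2.08 to 2.20]. MG4, the arachnoid layer, was 1.72-fold and 2.73-fold above them. MG1 had no cell in suffix 1, and the other suffixes gave 1010 and 1006 CPM. Osteoclasts held 698.9 and 1059 CPM and C1q-high cells 1525 and 1783 CPM.

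**Figure D2:**
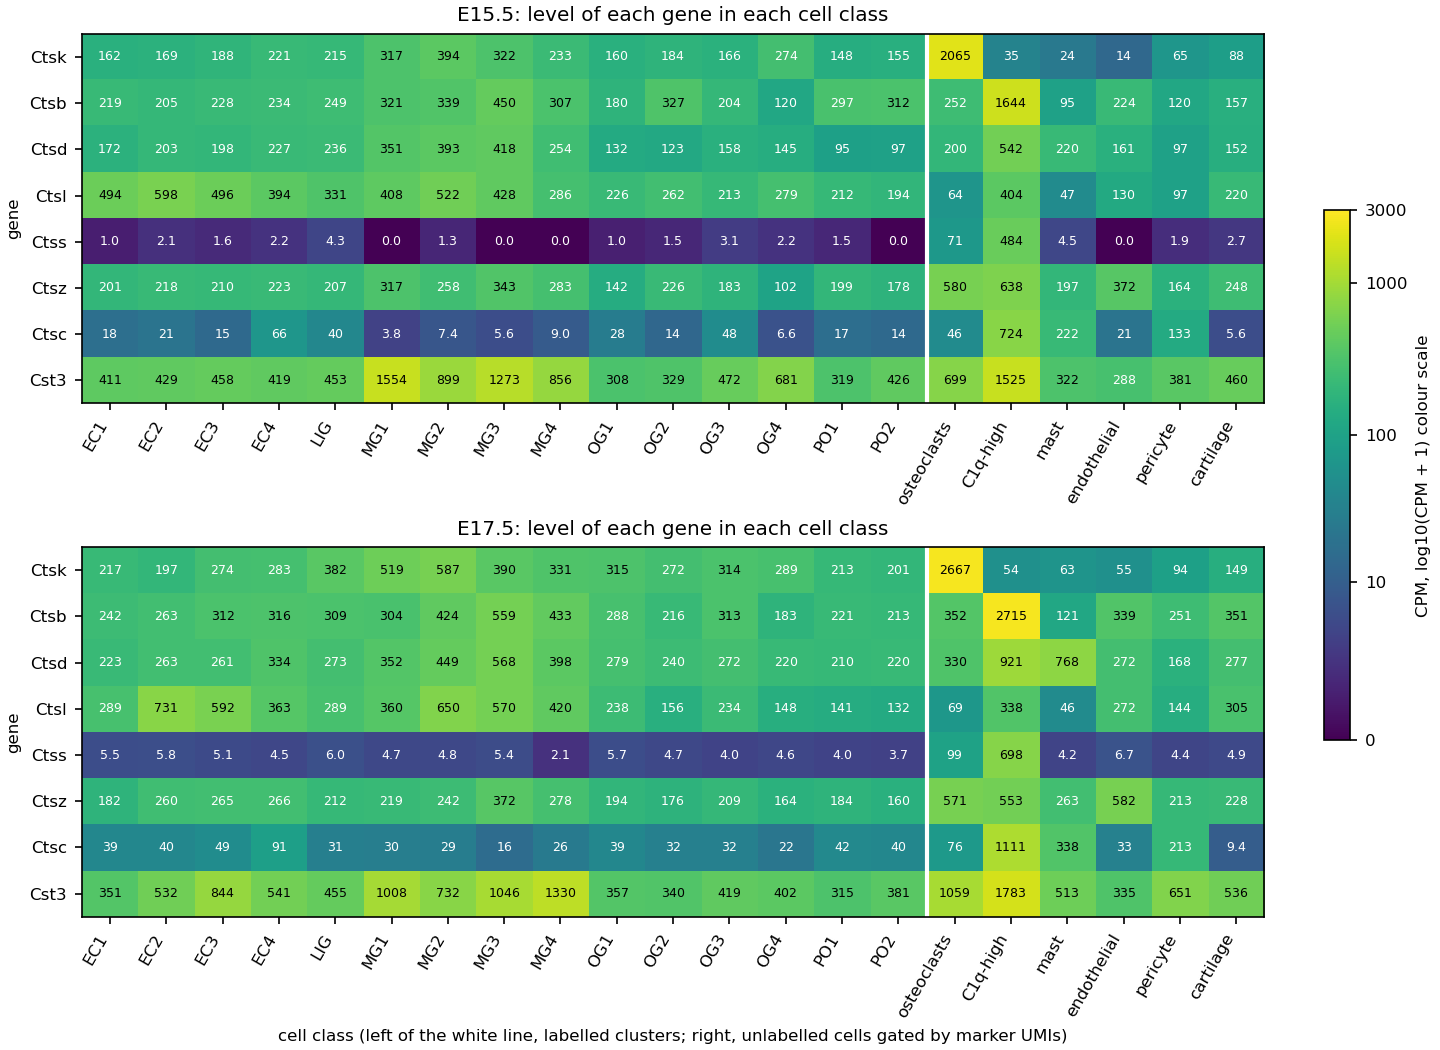
CPM of the 8 genes (rows) in the 15 labelled clusters, left of the white line, and in 6 unlabelled classes at both stages, coloured on a log10(CPM + 1) scale. *Ctsk* stands out in osteoclasts, with 2065 and 2667 CPM, whereas *Ctsb*, *Ctss* and *Ctsc* stand out in C1q-high cells, and *Cst3* is high in those and in the meningeal clusters.

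Counted by one rule of size, 3 of the 8 genes (*Ctsd*, *Ctsc* and *Cst3*) were at least 2-fold above the other labelled cells in the same cluster in both libraries, beside 20.7% of all 12150 genes with 50 or more UMIs. In osteoclasts 4 of the 8 (*Ctsk*, *Ctss*, *Ctsz* and *Ctsc*) were at least 2-fold above labelled cells in both libraries, beside 8.78% of 12276 genes, and 1 (*Ctsl*) was at least 2-fold below, beside 16.6%. Against C1q-high cells 1 gene (*Ctsk*) was higher in osteoclasts, beside 4.64% of 7412 genes, and 5 (*Ctsb*, *Ctsd*, *Ctsl*, *Ctss* and *Ctsc*) were lower, beside 9.81%. The median fold of the 8 genes over labelled cells was 1.72 and 2.11, against 0.932 and 0.952 for all genes tested, and over C1q-high cells 0.264 and 0.281, against 0.998 and 0.967.

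The cathepsin pool differed between the classes in both size and make-up. The 7 cathepsins summed to 3277 and 4163 CPM in osteoclasts, 4470 and 6390 CPM in C1q-high cells, and 868 to 1966 CPM at E15.5 and 970 to 2481 CPM at E17.5 over the labelled clusters. *Ctsk* was 63.0% and 64.1% of the pool in osteoclasts, *Ctsz* 17.7% and 13.7%, *Ctsb* 7.68% and 8.44%, *Ctsd* 6.09% and 7.92%, and *Ctsl*, *Ctss* and *Ctsc* under 3% each. In C1q-high cells *Ctsb* led with 36.8% and 42.5%, *Ctsc* gave 16.2% and 17.4%, and *Ctsk* only 0.776% and 0.853%. Labelled clusters were mixed, and the largest share there was that of *Ctsl* in EC2, at 42.2% and 41.5%. *Ctsl* or *Ctsb* led in every cluster at E15.5, while at E17.5 *Ctsk* led in LIG, MG1 and OG1 to OG4, with 22.8% to 29.0% of the pool. OG3 at E17.5 was level between *Ctsk* at 22.80% and *Ctsb* at 22.72%. OG4 at E15.5 was level as well, between *Ctsl* at 30.04% and *Ctsk* at 29.51%.

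The ratio of *Cst3* to cysteine cathepsin RNA was lower in osteoclasts than in any labelled cluster. They held 0.227 [0.214 to 0.241] and 0.276 [0.262 to 0.292] *Cst3* UMIs per UMI of the 6 cysteine cathepsins. The lowest labelled values were 0.325 in OG2 at E15.5 and 0.330 in OG1 at E17.5, and the highest were 1.14 in MG1 and 0.893 in MG4. C1q-high cells gave 0.388 and 0.326. Endothelial cells at E17.5, at 0.260, were as low as osteoclasts. *Cstb*, an inhibitor that stays inside cells, is not part of this ratio. It stood above *Cst3* in osteoclasts, at 1013 and 1144 CPM. These are ratios of RNA and do not give protein or activity.

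**Figure D3:**
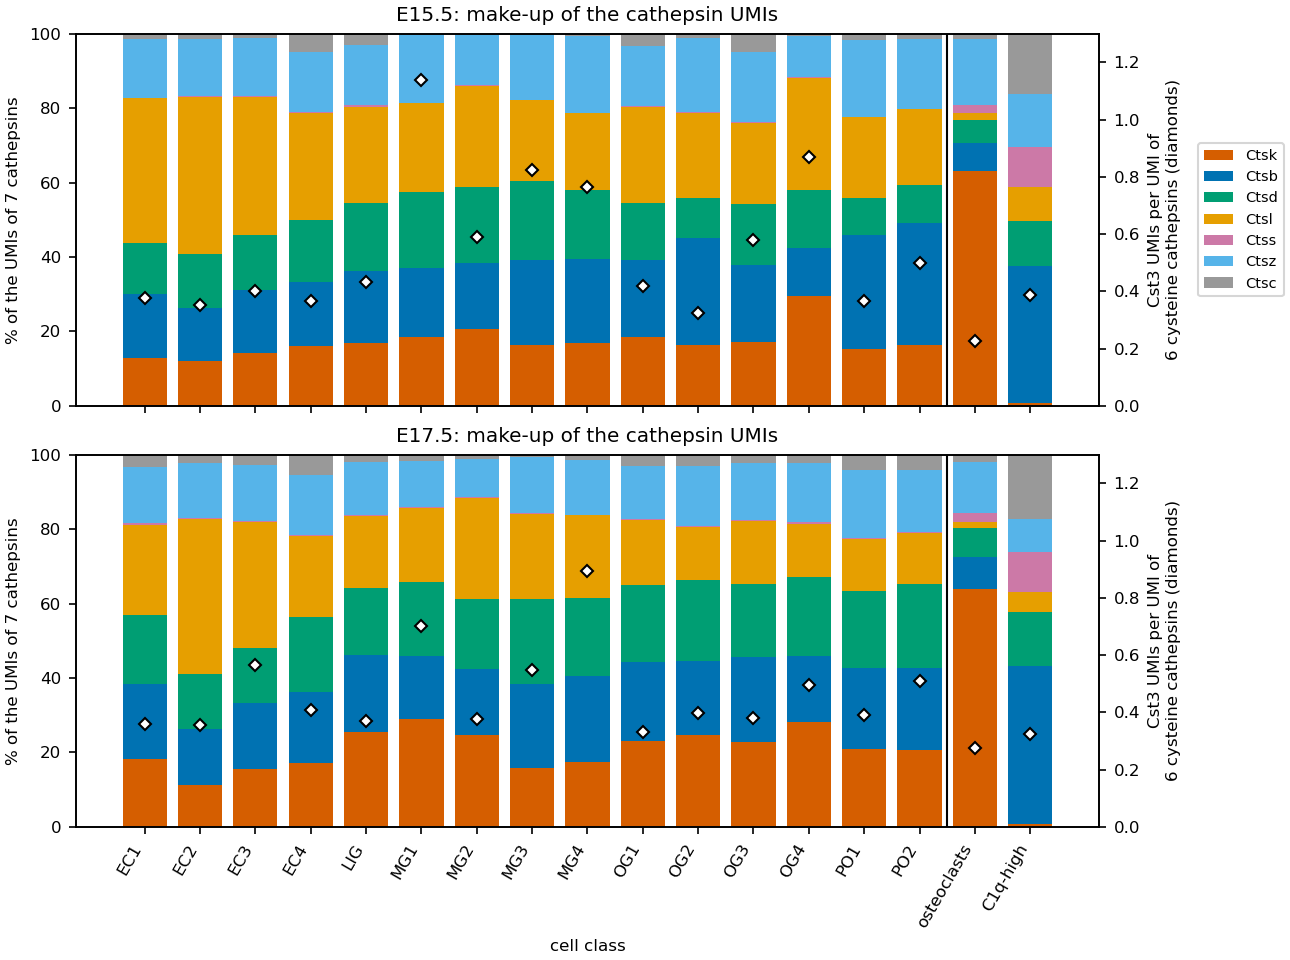
Stacked bars give the share of each cathepsin in the UMIs of the 7 (left axis, %), and diamonds the *Cst3* UMIs per UMI of 6 cysteine cathepsins (right axis), for each class at both stages. *Ctsk* fills 63.0% and 64.1% of the osteoclast bar and under 1% of the C1q-high bar.

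Single osteoclasts varied widely in *Ctsk*. At E15.5 the level per cell had quartiles of 281.7 and 2566 CPM around a median of 1556 CPM, and 86 of 92 cells had a UMI. At E17.5 the quartiles were 334.5 and 5539 CPM around 2069 CPM, with a UMI in 63 of 67 cells. The highest cells reached 11730 and 8794 CPM. In 26.09% and 32.84% of osteoclasts the level was no higher than that of the top labelled cluster, MG2. By contrast *Ctsz* had quartiles of 323.3 and 763.7 CPM at E15.5. Median *Ctss* was 36.86 CPM at E15.5, with a UMI in 52 of 92 cells, while *Ctsc* had a UMI in 37 of 92.

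**Figure D4:**
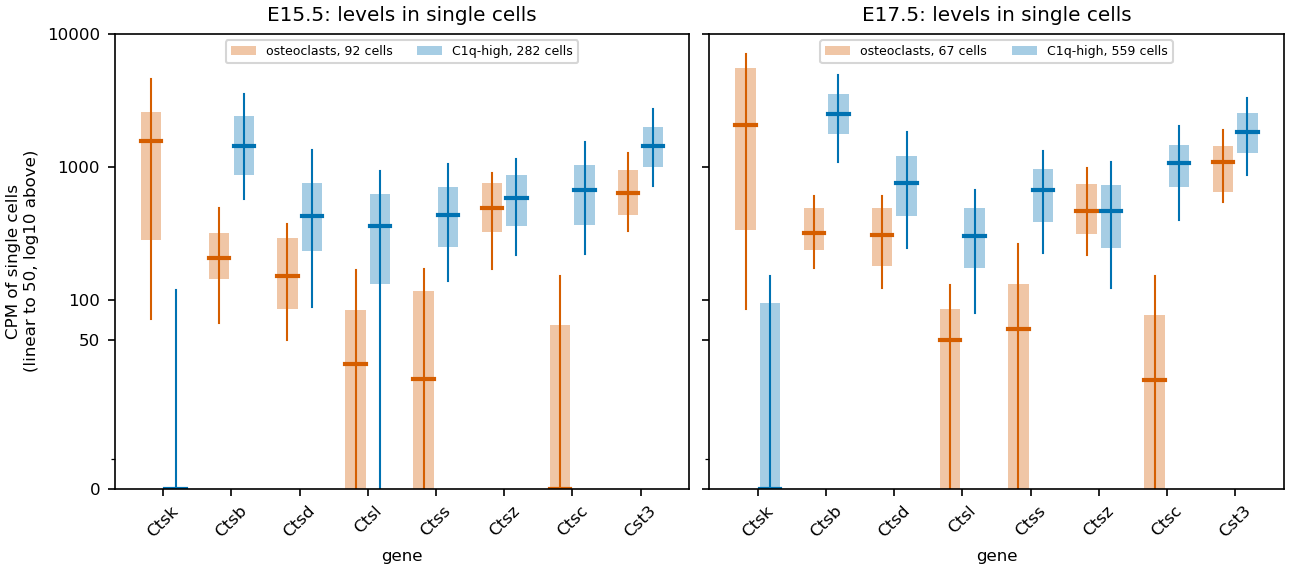
CPM per cell of the 8 genes in osteoclasts and C1q-high cells at both stages, on an axis that is linear to 50 CPM and log10 above it. Boxes span the quartiles, thin lines the 10th to 90th percentile, and thick lines mark the median, which for *Ctsk* is 1556 and 2069 CPM in osteoclasts and 0 in C1q-high cells at both stages.

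Other cathepsins did not all follow *Ctsk* within the osteoclasts. The cells were parted at the median *Ctsk* level of each library, into 46 and 46 cells at E15.5 and 34 lower and 33 upper cells at E17.5, which marks a range and not types: 14 and 7 cells lay within 1.2 times of the median. *Ctsd* was 2.09-fold and 1.90-fold higher in the upper cells, *Ctsb* 1.95- and 1.65-fold, *Cst3* 1.29- and 1.72-fold, and *Ctsz* 1.35- and 1.42-fold. *Ctss* ran the other way, at 83.71 CPM in the lower against 57.4 CPM in the upper E15.5 cells, and 136.6 against 48.05 CPM in the E17.5 cells. *Ctsc* did so as well, at 62.52 against 29.76 CPM in the former and 114.6 against 24.03 CPM in the latter. The interval for *Ctsl* included 1 in both libraries.

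Some osteoclast genes outside the rule were also higher in the upper cells, but not all. *Atp6v0d2* was 2.66- and 3.05-fold higher in them, *Atp6v1a*, another pump subunit, 2.35- and 4.02-fold, and *Dcstamp*, a fusion receptor, 2.63- and 4.82-fold. For *Tnfrsf11a*, at ratios of 1.199 and 1.234, the interval included 1 in both libraries. *Prdm1* was at a ratio of 0.9426 in the E15.5 cells, with an interval that included 1, and at 1.587 in the E17.5 cells. The proliferation genes *Mki67* and *Top2a* were lower in the upper cells, by ratios of 0.710 and 0.282 for *Mki67* and 0.754 and 0.263 for *Top2a*. Median depth was 20568 UMIs in the lower and 17928.5 in the upper E15.5 cells, against 26396.5 and 19937 for E17.5. *C1qa* was not higher in the lower cells at E15.5 (0 against 14.88 CPM) and was so at E17.5 (33.06 against 15.02 CPM). The part of depth and of macrophage RNA in these ratios was not tested.

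**Figure D5:**
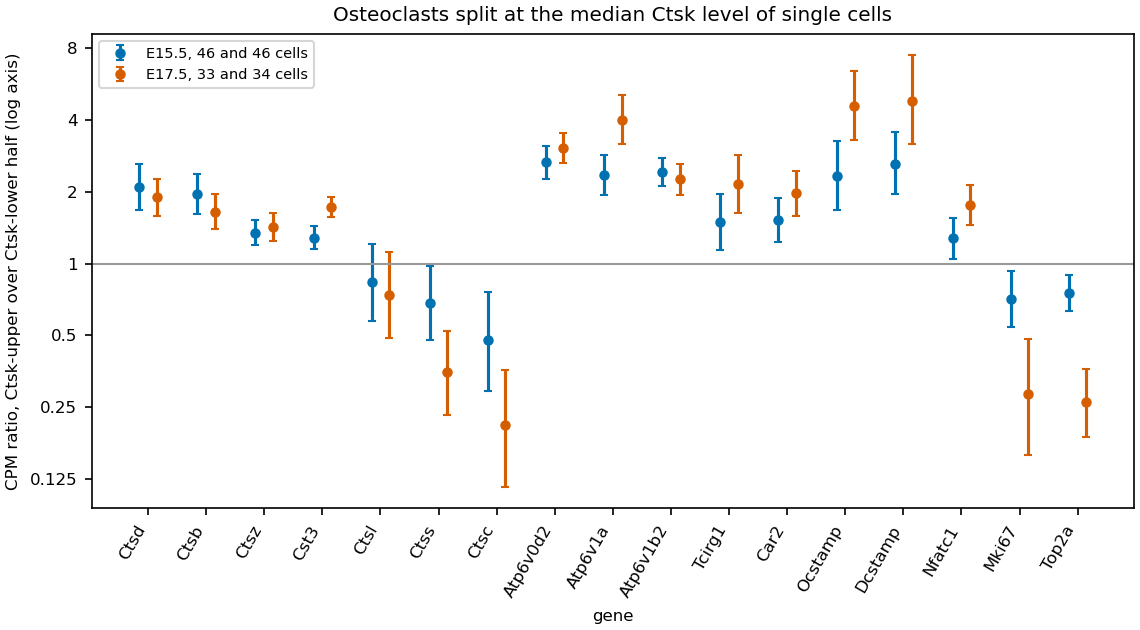
Ratio of CPM in osteoclasts above the median *Ctsk* level to CPM in those at or below it (log axis), with exact 95% intervals, at E15.5 and E17.5. *Ctsd* and *Ctsb* lie above 1, and *Ctss* and *Ctsc* lie below 1 at both stages.

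Genes that work with the cathepsins were read from lists. The acid secretion list held 7 genes (*Tcirg1*, *Atp6v0d2*, *Atp6v1a*, *Atp6v1b2*, *Clcn7*, *Ostm1* and *Car2*). All 7 were at least 2-fold higher in osteoclasts than in labelled cells, beside 8.78% of 12276 genes. Their median folds were 15.01 and 13.77, against 0.932 and 0.952 for all genes tested. Against C1q-high cells 6 of the 7 were at least 2-fold higher in osteoclasts, beside 4.64% of 7412 genes. *Car2*, the carbonic anhydrase that makes the protons, stood at 194.7 and 225.6 CPM against 5.58 and 1.73 CPM in labelled cells. Of 4 other cathepsins with enough UMIs, 1 was higher in osteoclasts than in labelled cells, *Ctsa* (242.5 and 357.8 CPM), beside the same 8.78% of all genes. *Ctsh* was 11.35- and 8.78-fold higher in C1q-high cells than in osteoclasts. *Ctse*, *Ctsg* and *Ctsw* were too low to enter.

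Of the 8 inhibitors listed, *Cst6*, *Stfa1*, *Stfa2*, *Stfa3* and *Cstdc4* were not compared, being too low or not in both gene lists. *Cstb*, the inhibitor that stays inside cells, stood at 1013 and 1144 CPM, 5.47- and 6.95-fold above labelled cells, and above *Cst3* in osteoclasts. *Cst7*, which encodes cystatin F, a lysosomal inhibitor known to act on cathepsin C, stood at 30.78 and 78.17 CPM against 0.185 and 0.637 CPM in labelled cells. *Cst7* reached the minimum of 50 UMIs at E15.5 only through osteoclasts. *Serpinb6a* was at least 2-fold lower than in C1q-high cells.

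The sorting and activation list gave 3 of 9 genes higher in osteoclasts than in labelled cells and 2 lower, beside 8.78% and 16.6% of all genes tested. *M6pr*, the small receptor for mannose 6-phosphate, was 6.84- and 7.05-fold higher and *Gnptab*, which makes that tag, 5.38- and 5.34-fold, whereas *Igf2r*, the large receptor for it, was at ratios of 0.439 and 0.433. *Sort1*, another sorting receptor, was at 0.321 and 0.286. *Mitf*, a transcription factor of osteoclasts, was 30.28- and 29.2-fold higher. *Lgmn*, the protease legumain that cuts several procathepsins, was 14.39- and 12.83-fold higher in C1q-high cells than in osteoclasts. Of 14 other lysosomal genes, 3 were higher in osteoclasts than in labelled cells and 1 lower, beside the same shares of all genes. The median folds of the 14 were 0.899 and 1.41. *Cd68* was 73.68- and 105.2-fold and *Hexa* 2.33- and 3.81-fold higher, and *Lamp2* was at ratios of 0.173 and 0.357. Against C1q-high cells 5 of the 14 were at least 2-fold lower (*Lamp1*, *Lamp2*, *Grn*, *Lipa* and *Ppt1*), beside 9.81% of all genes, and 0 were higher.

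Between the stages *Ctsk* and *Ctsd* were above their E15.5 level in all 15 clusters at E17.5, by median folds of 1.44 and 1.47. For *Ctsk* the fold was lowest in OG4 (1.06) and highest in OG1 (1.97), and for *Ctsd* lowest in MG1, where 352.5 and 351.2 CPM did not differ beyond counting error. Over all 12150 genes, 5.10% were higher in every cluster and 5.43% were lower. *Ctsc* was higher in 13 clusters (median 2.48-fold) and *Ctss* in 12 with none lower, but C1q UMIs differed as well: those of the labelled cells would carry 0.58 to 2.43 CPM of *Ctss* at E15.5 and 3.19 to 5.09 CPM at E17.5. *Ctsb* was higher in 11, *Ctsz* in 8, and *Ctsl* and *Cst3* in 7. None of the 8 reached a median of 2-fold with all clusters in 1 direction, beside 1.49% of all genes that did so upward and 2.32% downward. In osteoclasts the folds of E17.5 over E15.5 were 1.29 [1.24 to 1.35] for *Ctsk*, 1.65 for *Ctsd* and *Ctsc*, 1.52 for *Cst3*, 1.41 for *Ctss*, 1.40 for *Ctsb*, 1.07 for *Ctsl* and 0.984 for *Ctsz*. Haemoglobin RNA also differed between the libraries, with *Hbb-bs* at 5452 CPM in labelled cells at E15.5 and 283.2 CPM at E17.5, and its part in these values was not tested.

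The clusters' patterns were alike in both libraries for some members only, with the correlation of log2(CPM + 1) over the 15 clusters at 0.878 for *Ctsd*, 0.846 for *Ctsk* and *Ctsl*, 0.806 for *Cst3* and 0.406 for *Ctss*. Clusters share libraries and depth, so these are descriptions. Members paired within each library as well: *Ctsb* with *Ctsz* at 0.859 and 0.878, *Ctsk* with *Ctsd* at 0.832 and 0.728, and *Ctsk* with *Ctsc* at −0.61 and −0.43. By the lower of the 2 libraries' correlations among 3770 genes, those most like *Ctsk* were *Col11a1* (0.833), *Pcolce* (0.826) and *Ltbp3* (0.819). *Ctsd* was most like *Pld3* (0.943), *Slc50a1* (0.927) and *Gaa* (0.924), and *Ctsb* like *Angptl4* (0.91), *Psap* (0.902) and *Fbln1* (0.887). *Ctsl* was most like *Calml4* (0.884), *Sema3c* (0.873) and *S100a16* (0.867), and *Ctsz* like *Nenf* (0.89), *Tmem115* (0.875) and *Cat* (0.873). For *Cst3* they were *Lrpap1* (0.92), *Fuca1* (0.887) and *Ergic3* (0.881), and for *Ctsc*, at lower values, *Prrx1* (0.779), *Sostdc1* (0.759) and *Meis2* (0.747). *Ctss* had no close match, with *Polr3d* at 0.678, *Irf2bpl* at 0.519 and *Jund* at 0.517.

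The other members lie apart from *Ctsk* and *Ctss* in the GRCm38 annotation. *Ctsc* spans positions 88278085 to 88310888 on the plus strand of chromosome 7 and *Ctsd* 142375911 to 142388038 on its minus strand. *Ctsz* spans 174427493 to 174439039 and *Cst3* 148871722 to 148875692, both on the minus strand of chromosome 2. *Ctsb* lies at 63122462 to 63145923 on the plus strand of chromosome 14, and *Ctsl* at 64359337 to 64370890 on the minus strand of chromosome 13.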

How the data were processed

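Libraries were made with the 10x Chromium 3′ v2 kit. The authors aligned reads to mm10 and counted them with Cell Ranger. Software version 3.1.0 is named in the E15.5 matrix header and none in the other, and the gene lists hold 31053 and 27998 genes. The deposited matrices hold raw UMI counts per gene and barcode (15384 barcodes at E15.5, 9326 at E17.5). The lowest barcode held 500 UMIs at E15.5 and 2975 at E17.5, so the depth at which barcodes begin differs between the files. The deposited table gives the cluster of each osteogenic or mesenchymal cell, from Seurat 3.2.0, and its UMI count, which equals that in the matrix for all 6830 cells at E17.5 and for 0 at E15.5. Of its 5340 cells at E15.5, 5 were not among the barcodes.

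Unlabelled cells had to hold 1000 or more UMIs and 1000 or more genes, with mitochondrial UMIs no higher than 7.5% and Hbb and Hba no higher than 3% each, which left 2875 at E15.5 and 1937 at E17.5. These limits removed cells that reached the osteoclast rule, 21 and 1 in number. No doublet caller was run. Barcode sequences shared between E15.5 and the E17.5 suffixes numbered 30, 78 and 83, and between suffixes 10, 10 and 23.

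UMIs were summed per class and divided by the class total. A gene counted as different at 2-fold or more in both libraries, with at least 50 UMIs in the compared classes of each. For folds between classes, the lower level was set to no less than 3 counts per class. With 1 sample per stage no test and no p-value were computed. All 8 members were named, with the 3 genes of most similar pattern for each (among genes of at least 50 CPM in their highest cluster) and the members of the pathway lists, of which 1 lysosomal gene is not reported here. The members and lists were chosen with earlier results of these data known. Of the lists of markers not used to choose cells, osteoclasts gave 6 of 7 genes higher in osteoclasts than in labelled cells, several of which met the minimum only through osteoclasts, C1q-high 2 of 4, cartilage 0 of 4, red blood cells 0 of 4, endothelial cells 0 of 3, pericytes 0 of 2, mast cells 0 of 1 and S100a8/9-high cells 0 of 1. Python 3.11.15 was used with numpy 2.4.6, scipy 1.17.1, pandas 2.3.3 and matplotlib 3.10.9.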

Additional observations from a re-analysis of the deposited data

Results flagged for a closer look

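Listed here are 8 pairs of a gene and a cluster. In each, the level relative to the other labelled cells lay on opposite sides of 1 in the 2 libraries. All E17.5 barcode suffixes lay on the E17.5 side. The list is not complete, as other pairs also changed sides. Among them were *Ctsb* in PO2, with ratios of 1.259 in the earlier library and 0.7453 in the later one, and *Ctsk* in EC4 (1.08 and 0.8844). The difference between libraries was not tested, and stage and handling cannot be told apart. In the mature osteoblasts of OG4, *Ctsk* had ratios to the other labelled cells of 1.346 at E15.5 and 0.8993 at E17.5 (0.8651 to 0.9051 over the suffixes). *Cst3* in OG4 went the same way, from 1.374 to 0.7789 (0.7499 to 0.8784).

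*Ctsb* in OG2 was at 1.357 at E15.5 and 0.7434 at E17.5 (0.6855 to 0.7807), and in PO1 at 1.207 and 0.7633 (0.7373 to 0.798). In OG3 *Ctsb* was at 0.8176 and 1.119 (1.092 to 1.12). *Ctsl* in MG4 was at 0.6656 and 1.352 (1.358 to 1.859), with 7 MG4 cells in suffix 1. In EC3 *Ctsc* was at 0.59 and 1.367 (1.258 to 1.447) and *Cst3* at 0.8888 and 1.7 (1.208 to 1.881).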

How the results depend on the processing

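Of 82 recomputed counts, 68 held the same members. The count of members enriched in a labelled cluster was 7 at 1.5-fold, 0 at 3-fold and 5 with suffix 1 alone (*Ctsk* and *Ctss* added), against 3. *Ctsd* left it under the mean of single-cell CPM (1.964-fold in MG3 at E17.5). The count higher in osteoclasts than in labelled cells was 2 at 3-fold (*Ctsk* and *Ctss*), against 4, and *Ctsc* left it under 6 other settings: suffix 1 alone, suffix 3 alone, 40 UMIs of the marker pair, genes over 0.5% of UMIs left out, means over single cells, and cells of another list left out. Of 240 recomputed folds, 234 were within 1.5 times of the value reported and 234 on the same side of 1. *Ctsd* in osteoclasts over labelled cells at E17.5 fell on the other side with suffix 1 alone (0.9805 against 1.168), and *Ctsc* there ranged from 1.083 to 3.442. Leaving out the 2 clusters with under 50 cells at E15.5, chosen after seeing the data, was among the alternatives. The cause of these changes was not tested. No paired analysis was possible because each stage is 1 sample, which also leaves no replicate to leave out.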
